A study of Mus musculus with 6 samples.

Results

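The 10 genes described here belong to the acute phase response and to antimicrobial defence, measured in cultured lung fibroblasts after Wt1 knockdown: Hp, Lcn2, Saa3, Ptx3, S100a8, S100a9, Cd14, Lbp, Slpi and Orm1. They were picked by gene symbol, and all 10 have a row among the 24061 genes of the count table. The low values of Hp, Cd14 and S100a8 after Wt1 siRNA prompted the choice, so the values of these 3 genes are given as a description without a test. Pitx3, a homeobox gene that once carried the symbol Ptx3, is another gene and was left out, and it had 0 counts in the 6 libraries.

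The cells were fibroblasts that the labels call lung resident fibroblasts, cultured from fibrotic lungs of mice with the genotype TGF-alpha transgenic. All 6 libraries carry this transgene, so no library shows cells without it. Control libraries 1 to 3 had received stealth control siRNA, and libraries 4 to 6 stealth WT1 siRNA, a short RNA duplex directed against the transcript of the Wilms tumour transcription factor. The sources used here do not give the promoter of the transgene, the age of the mice, the duplex sequences or the time after transfection. Whether each library stands for its own culture or mouse is not labelled. The p-values therefore reflect only how much these samples varied, and that variation may be technical.

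The acute phase response is a change in secreted proteins that follows infection or tissue injury. Interleukin 6 (IL-6) and related cytokines act through the shared receptor chain gp130 and the transcription factor STAT3, and IL-1 acts through NF-kB; both routes meet C/EBP factors at the promoters of acute phase genes. The liver is the main source in the body, but fibroblasts and epithelia also make several of these proteins, among them serum amyloid A3, pentraxin 3 and haptoglobin, which act locally on bacteria, iron and tissue damage.

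Sequence from the 250 bases before the RefSeq transcript start (GRCm38.p6) is shown for the 3 tested members that fell, had a promoter that was searched and held a C/EBP motif: Saa3 (chr7:46715701-46715926, minus strand), Ptx3 (chr3:66219637-66219886, plus strand) and Slpi (chr2:164356508-164356757, minus strand). Each is written 5′ to 3′ on the strand of the gene. For Saa3 the start in the promoter table, 46715676, lies 3939 bases inside the gene span given below, and the last 24 of its 250 bases are left out because GENCODE M21 has them in an exon. Capitals mark the C/EBP motif TTNNGCAA, and in Ptx3 also a later match to the WT1 motif GNGTGGGNG on the opposite strand.
Saa3: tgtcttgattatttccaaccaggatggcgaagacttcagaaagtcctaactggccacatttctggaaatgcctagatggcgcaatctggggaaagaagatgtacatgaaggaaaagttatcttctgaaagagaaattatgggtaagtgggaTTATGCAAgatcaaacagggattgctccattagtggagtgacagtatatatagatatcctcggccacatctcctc
Ptx3: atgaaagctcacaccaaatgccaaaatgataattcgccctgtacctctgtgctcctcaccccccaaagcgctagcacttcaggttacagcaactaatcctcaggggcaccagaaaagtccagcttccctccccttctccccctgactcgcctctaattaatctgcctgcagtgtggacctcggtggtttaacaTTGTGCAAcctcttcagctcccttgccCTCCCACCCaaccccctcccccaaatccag
Slpi: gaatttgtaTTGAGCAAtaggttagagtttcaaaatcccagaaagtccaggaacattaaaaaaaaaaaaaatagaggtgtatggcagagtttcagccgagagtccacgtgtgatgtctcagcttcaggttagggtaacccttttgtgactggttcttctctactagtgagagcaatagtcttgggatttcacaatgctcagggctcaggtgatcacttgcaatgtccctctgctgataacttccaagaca

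RefSeq promoters of 6 of the 10 members were searched, namely those of Lcn2, Saa3, Ptx3, S100a8, S100a9 and Slpi. Those of Hp, Cd14, Lbp and Orm1 were not. Searched on both strands over 250 bases, TTNNGCAA was found in 5 of these 6, where it was found in 9.56% of 32851 promoters. The match lay at -99 to -92 in Saa3 and at -57 to -50 in Ptx3, counted back from the start, and at -241 to -234 in Slpi, -216 to -209 in Lcn2 and -236 to -229 in S100a9. S100a8 had no match to these letters, but held the TATA box letters TATAAA at -30 to -25, which 12.4% of promoters held. For S100a8 the last 93 bases of the window, and for Lcn2 all 250, lie at or after a GENCODE M21 exon base of the same gene. The matches in S100a8 and Lcn2 fall in these stretches and may thus lie in transcribed sequence. The STAT3 motif TTCNNNGAA was in 0 of the 6 and in 7.02% of all promoters. The NF-kB motif (GGG, 4 bases of any kind, then TCC) was in Lcn2 alone (16.5% of all promoters), and GNGTGGGNG in Ptx3 alone (12.7%). No match overlapped one of another motif. These are matches of letters in a short window and say nothing of binding. Among the 22 promoters of other acute phase genes 12 held TTNNGCAA (54.5%), against 9.16% of tested genes with a promoter, 10.4% of the genes called lower and 8.02% of those called higher after Wt1 siRNA. The 22 include genes with too few reads to be tested. Of the 7 promoters of tested other acute phase genes, 5 held the motif (71.4%): C3, Cp, Mt2, Saa1 and Steap4, of which Mt2 and Saa1 were not called.

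**Figure D1:**
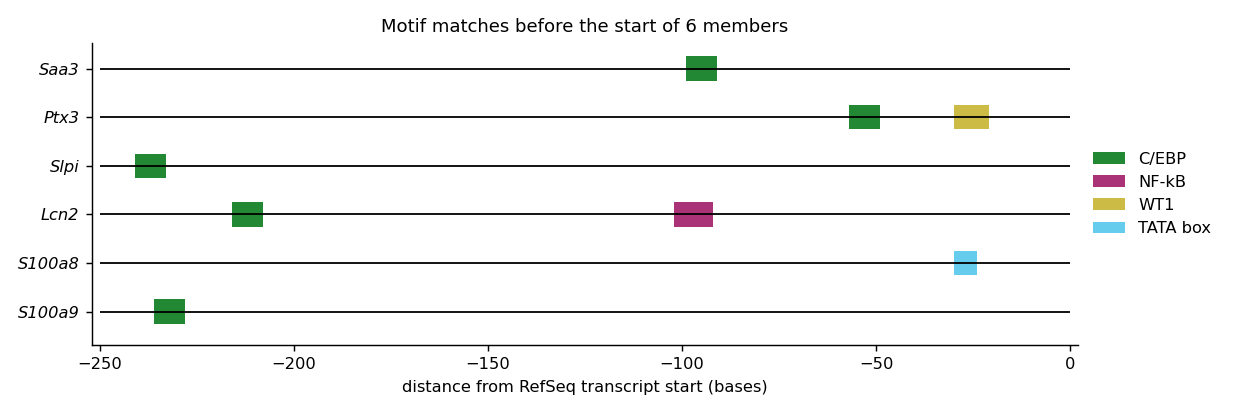
Positions of motif matches in the 250 bases before the transcript start of 6 members; the x axis is the distance from the start in bases and each colour is 1 motif. C/EBP matches are seen in 5 members and TATA box letters in S100a8. The matches in Lcn2 and S100a8 lie at or after an annotated exon base of the same gene.

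The libraries held 26.1 to 32.1 counts (in units of 1e6), so that 3 counts in a library were worth 0.0926 to 0.113 counts per 1e6 counts (CPM). CPM values below are scaled with edgeR's TMM factors. Wt1 stood at 48.8, 55.7 and 51.5 CPM in the controls and at 11.4, 8.63 and 7.92 CPM after Wt1 siRNA, a log2 fold change of -2.48 ± 0.16 (SE; adjusted p = 5.98e-06 by edgeR's quasi-likelihood test after Benjamini-Hochberg). Of 14190 genes tested 19.3% were called at an adjusted p below 0.05, 10.3% lower and 9.05% higher, and the median log2 fold change was 0.0035. With scaling by library size alone 1829 genes were lower and 855 higher, in place of 1459 and 1284, and without Wt1 siRNA library 4 they were 785 and 578; without Wt1 siRNA library 5, 836 were higher. Fibroblast markers were abundant as a sum: the 10 markers summed to 28800 to 40200 CPM in the controls and to 41300 to 48600 CPM after Wt1 siRNA. Collagen genes were a large part of these sums. In the controls Col1a1, Col3a1 and Col1a2 averaged 7980, 7430 and 5790 CPM, while Lum averaged 15.7 CPM.

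All 8 members with enough reads to be tested had lower means after Wt1 siRNA. In 7 of them, that is in each of these except Lcn2, no Wt1 siRNA library reached the lowest control; groups that did not overlap were found in 36.4% of all tested genes, lower in 18.3% and higher in 18.1%. Among the 5 tested members that did not prompt the choice, Saa3, Slpi, Lbp and Ptx3 fell and Lcn2 did not pass, beside the 10.3% of all genes called lower. Since the list was put together with the results of this comparison known, nothing is read from these counts. The number of higher members was 0 by edgeR, DESeq2 and limma-voom, and also 0 by edgeR's p before adjustment at 0.05. S100a9 and Orm1 did not pass the filter on low counts, a minimum of 0.347 CPM in 3 libraries. S100a8 passed through its 3 controls and had 1 Wt1 siRNA library above the minimum, and Lcn2 passed through 2 controls and 1 Wt1 siRNA library; the other 6 were above it in each of the 6 libraries.

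**Figure D2:**
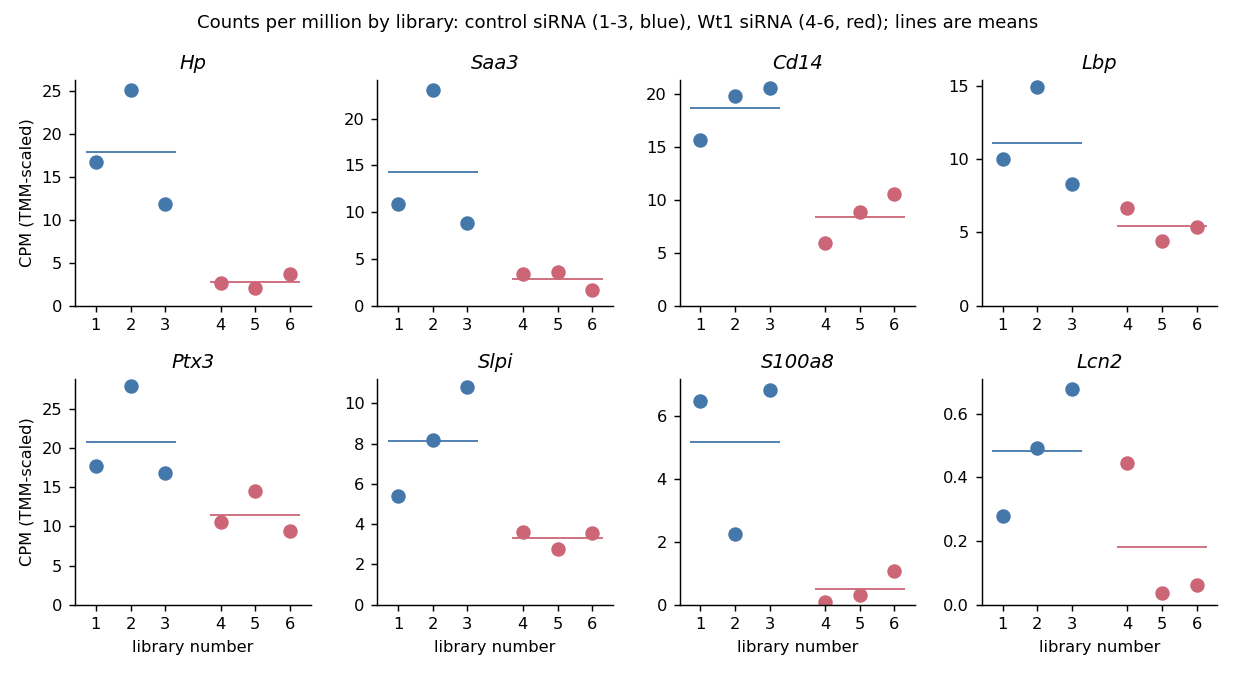
Level of each tested member in CPM (y axis, from 0) in control siRNA libraries 1 to 3 (blue) and Wt1 siRNA libraries 4 to 6 (red); lines are group means. The groups are apart in 7 genes, and in Lcn2 library 4 (0.446 CPM) lies among the controls.

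Hp and Lcn2 handle haemoglobin and iron. Hp (gene ID 15439, chromosome 8, 109575128 to 109579172, GRCm38) encodes haptoglobin, which binds free haemoglobin. It stood at 16.7, 25.2 and 11.8 CPM in control libraries 1 to 3 and at 2.68, 1.99 and 3.69 CPM in Wt1 siRNA libraries 4 to 6. The lowest control was thus more than any library with Wt1 siRNA, and control library 2 was the highest of all. The means were 17.9 ± 6.82 and 2.79 ± 0.855 CPM (SD, n = 3), 6.38-fold lower (log2 fold change -2.67 ± 0.31 SE), and the log2 fold change was -2.34 to -2.94 with 1 library left out.

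Lcn2 (ID 16819, chromosome 2, 32384637 to 32387739) encodes lipocalin 2, which withholds iron from bacteria by binding their siderophores. It was rare, with 9, 14 and 18 counts in the controls and 12, 1 and 2 counts after Wt1 siRNA. In CPM these were 0.278, 0.493 and 0.677 against 0.446, 0.0362 and 0.0626, so that Wt1 siRNA library 4 lay inside the range of the controls while the other libraries of its group were below it. The log2 fold change of -1.40 ± 1.01 did not pass (edgeR adjusted p = 0.380). It was -3.16 without Wt1 siRNA library 4 (adjusted p = 0.179) and -0.927 without Wt1 siRNA library 5 (adjusted p = 0.677, the highest of its alternatives). A difference in Lcn2 was not detectable at this depth.

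The receptors and partners of these proteins were mostly without a call. Of 11 tested genes from a list of receptors and ligands of the encoded proteins, 2 were lower and 0 higher (18.2% lower; median log2 fold change -0.19). The count of higher genes was 1 by edgeR's p before adjustment, 0 by DESeq2 and limma-voom, and 2 when control library 2 was left out. Hmox1, the inducible haem oxygenase that breaks down haem, fell from 142 ± 23.3 to 84.0 ± 12.2 CPM (-0.75 ± 0.14, adjusted p = 0.00352). Fgf2, fibroblast growth factor 2, which pentraxin 3 binds, fell from 113 ± 22.7 to 42.5 ± 9.76 CPM (-1.41 ± 0.18, adjusted p = 2.90e-04). Cd163, the macrophage receptor for haptoglobin bound to haemoglobin, was near 0 (0.0787 and 0.0313 CPM). Slc22a17, a receptor of lipocalin 2, stood at 3.80 ± 0.232 and 4.20 ± 0.728 CPM (adjusted p = 0.770). Cd163 and Slc22a17 were named after their values were seen.

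Saa3 and Ptx3 encode secreted proteins of local inflammation. Saa3 (ID 20210, chromosome 7, 46711998 to 46719615) encodes serum amyloid A3, the main serum amyloid A protein made outside the liver in the mouse. It stood at 10.9, 23.1 and 8.87 CPM in the controls and at 3.42, 3.59 and 1.66 CPM after Wt1 siRNA. Control library 2 had more than either other control by a wide margin, and every control was above every Wt1 siRNA library. Saa3 fell from 14.3 ± 7.70 to 2.89 ± 1.07 CPM, 4.96-fold (log2 fold change -2.31 ± 0.38, adjusted p = 0.00159). Without control library 2 the log2 fold change was -1.78.

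Close copies of Saa3 were nearly silent. Saa1 had 18, 13 and 10 counts in the controls and 0, 4 and 0 after Wt1 siRNA, and did not pass (adjusted p = 0.0873). Saa2 had 0 counts in each library. Serum amyloid genes are similar in sequence, and it is not stated how reads that match several genes were counted, so reads could have been shared among them.

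Ptx3 (ID 19288, chromosome 3, 66219887 to 66225806) encodes pentraxin 3, a long pentraxin that coats microbes and is induced by IL-1. It stood at 17.7, 27.9 and 16.8 CPM in the controls and at 10.6, 14.5 and 9.39 CPM after Wt1 siRNA. Control library 2 was again the highest, and the gap between the groups was narrow, from 16.8 to 14.5 CPM. Ptx3 fell from 20.8 ± 6.19 to 11.5 ± 2.66 CPM, 1.82-fold (-0.86 ± 0.23, adjusted p = 0.0205). The call was lost without control library 2 (adjusted p = 0.0677), library 4 (0.0943) or library 6 (0.0660), and over all alternatives the adjusted p was 0.00347 to 0.0943. The Ptx3 gene lies within the span of Veph1, which had 1.73 ± 0.682 and 2.37 ± 0.769 CPM (adjusted p = 0.542).

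Cd14 and Lbp act in the sensing of bacterial lipopolysaccharide (LPS): the LPS-binding protein Lbp passes it to Cd14, which loads it on the receptor complex of Tlr4 and Ly96. Cd14 (ID 12475, chromosome 18, 36725064 to 36726815) stood at 15.6, 19.8 and 20.6 CPM in the controls and at 5.88, 8.88 and 10.5 CPM after Wt1 siRNA. Its lowest control was above the highest Wt1 siRNA library. The means were 18.7 ± 2.69 and 8.41 ± 2.34 CPM, 2.21-fold lower (log2 fold change -1.15 ± 0.22). Among the controls Cd14 varied least of the 8 members, by 1.32-fold between the lowest and the highest library.

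Lbp (ID 16803, chromosome 2, 158306493 to 158332852) stood at 10, 14.9 and 8.31 CPM in the controls and at 6.66, 4.39 and 5.35 CPM after Wt1 siRNA. These groups did not overlap, with control library 3 closest to Wt1 siRNA library 4. Lbp fell from 11.1 ± 3.43 to 5.46 ± 1.14 CPM, 2.03-fold (-1.02 ± 0.26, adjusted p = 0.0164). Without control library 2 its adjusted p was 0.0557 and without Wt1 siRNA library 5 it was 0.0584, in a range of 0.00247 to 0.0584 over all alternatives.

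The rest of the LPS pathway showed few calls. Of 17 tested genes of LPS sensing and Toll-like receptors, 2 were lower and 1 higher, and their median log2 fold change was -0.03. This is 11.8% lower and 5.88% higher, near the shares over all genes. Irak1, a kinase of Toll-like receptor signalling, fell by 0.38 ± 0.10 in log2 units (adjusted p = 0.0225), and Irak3, an inhibitor of that signalling, by 0.66 ± 0.19 (adjusted p = 0.0265). Tlr5, the flagellin receptor, rose by 1.04 ± 0.31 from 2.60 to 5.38 CPM (adjusted p = 0.0321). Tlr4 and Ly96, named after their values were seen, had overlapping groups: Tlr4 stood at 35.2 ± 7.94 and 28.1 ± 5.53 CPM (adjusted p = 0.262) and Ly96 at 5.78 ± 1.04 and 6.80 ± 1.84 CPM (adjusted p = 0.598). The counts of this list moved with the libraries used. Leaving out control library 1, or library 4 or 5 of the Wt1 siRNA group, gave 0 lower genes. Leaving out control library 3, or any of libraries 4 to 6, gave 0 higher genes, as did library size scaling. There were 2 higher genes when control library 1 was left out or no filter was used, and 3 by DESeq2.

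Slpi, S100a8, S100a9 and Orm1 are linked with mucosal or neutrophil defence. Slpi (ID 20568, chromosome 2, 164354070 to 164356507) encodes the secretory leukocyte protease inhibitor, which blocks neutrophil elastase. It stood at 5.4, 8.20 and 10.8 CPM in the controls and at 3.61, 2.79 and 3.54 CPM after Wt1 siRNA. Libraries 4 to 6 lay close together and below each control. Slpi fell from 8.13 ± 2.69 to 3.31 ± 0.452 CPM, 2.45-fold (-1.29 ± 0.29, adjusted p = 0.00807). The microRNA gene Mir7678 lies inside Slpi and had 1.24 ± 0.920 and 0.608 ± 0.342 CPM (adjusted p = 0.389), so that reads could have been split between them.

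S100a8 and S100a9 encode the subunits of calprotectin, a protein of neutrophils and monocytes that binds calcium and zinc. S100a8 (ID 20201, chromosome 3, 90669071 to 90670034) had 210, 64 and 182 counts in the controls and 2, 9 and 34 counts after Wt1 siRNA, or 6.48, 2.25 and 6.84 CPM against 0.0744, 0.326 and 1.06 CPM. Control library 2, which was highest for Hp, Saa3, Ptx3 and Lbp, was the lowest control here, and Wt1 siRNA library 6 had more than the other libraries of its group. The means were 5.19 ± 2.55 and 0.488 ± 0.514 CPM, 10.3-fold lower (log2 fold change -3.36 ± 0.68, and -4.66 without Wt1 siRNA library 6). S100a9 (ID 20202, 90692630 to 90695721), whose span lies 22596 bases from that of S100a8, had 0 counts in each control and 3, 0 and 0 counts in Wt1 siRNA libraries 4 to 6. The 456 counts of S100a8 in the controls were at least 152-fold more than the 3 counts that 0 counts of S100a9 over the group allow, for principal transcripts of 486 and 519 bases.

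Of 10 other S100 genes tested 1 was lower and 0 higher, and their median log2 fold change was 0.07. The count of higher genes was 0 by DESeq2, limma-voom and edgeR's p before adjustment. S100a10, a partner of annexin A2 at the cell membrane, fell from 87.3 ± 13.2 to 52.7 ± 11.3 CPM (-0.73 ± 0.16, adjusted p = 0.00896). In this list 2 genes were lower by DESeq2, with no filter, or when control library 2 or library 6 was left out. S100a6, the most abundant by CPM, varied widely within each group, with means of 6120 ± 3360 and 6410 ± 3100 CPM (adjusted p = 0.938); it was named after its values were seen.

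Orm1 (ID 18405, chromosome 4, 63344556 to 63348163) encodes orosomucoid, an abundant plasma protein of the liver. It had 1 count in all, in Wt1 siRNA library 5. Its copy Orm2 had 0, 0 and 5 counts in the controls and 10, 1 and 4 counts after Wt1 siRNA, and Orm3 had 0 in each library. The orosomucoid genes are similar in sequence, so these few reads cannot be placed with certainty.

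Levels of different genes were compared per kilobase of the principal transcript (CPM per kb). In the controls Saa3 was highest (25.7 ± 13.9 CPM per kb), followed by Hp (13.3 ± 5.07), Cd14 (11.4 ± 1.64), Ptx3 (11 ± 3.26), S100a8 (10.7 ± 5.25), Slpi (9.28 ± 3.07), Lbp (4.39 ± 1.36) and Lcn2 (0.527 ± 0.218). From Saa3 to Slpi each gene overlapped the next in its range over the controls. The lowest control for Saa3 (16) was above the highest for Cd14 (12.6), Ptx3 (14.7), S100a8 (14.1) and Slpi (12.3), but not above that for Hp (18.8). Slpi was above Lbp and Lbp above Lcn2 in each control. After Wt1 siRNA Ptx3 led with 6.04 ± 1.40 CPM per kb, before Saa3 (5.21 ± 1.93), Cd14 (5.13 ± 1.43) and Slpi (3.78 ± 0.516). Lbp (2.16 ± 0.451), Hp (2.07 ± 0.636), S100a8 (1.0 ± 1.06) and Lcn2 (0.199 ± 0.251) followed. In that group Slpi was above Lbp without overlap, and the ranges of all other neighbours overlapped.

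The members did not vary in step among the controls. Hp, Saa3, Ptx3 and Lbp were highest in control library 2 and lowest in library 3, an order shared by 16.8% of all tested genes. Lcn2, Cd14 and Slpi were highest in library 3 and lowest in library 1 (12.6% of tested genes), and S100a8 was highest in library 3 and lowest in library 2 (19.8%). The order of Hp, Saa3, Ptx3 and Lbp was also that of 2 of 12 other acute phase genes, Serpina3n and C3. The IL-6, STAT3 and C/EBP list had it in 7 of 21 genes, and the IL-1, TNF and NF-kB list in 10 of 20. In the other S100 list 0 of 10 genes had this order. Among the markers it ranged from 0 of 8 macrophage and 0 of 7 epithelial genes to 4 of 7 mesothelial genes, with 4 of 10 for fibroblasts. Over the 6 libraries, the genes whose log2 CPM followed that of Hp most closely were Ankrd40, Adamts15 and Rnf20 (Pearson r = 0.995 each), Fam110a (0.995) and Sbno2 (0.993), out of 10590 genes ranked. The r values are a description. All 5 genes were lower in each Wt1 siRNA library than in each control, though Fam110a was not called (edgeR adjusted p = 0.0983). Since they were picked for following Hp, whose groups were apart, this was set by the choice and nothing is read from it.

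Other acute phase genes that could be tested were mostly lower. This list and the other lists were chosen with earlier results of these data known, so their counts are a description. Of 27 genes on a list of other acute phase proteins 12 were tested, and 10 of these were lower, 0 higher and 2 did not pass (83.3% lower; median log2 fold change -1.18). By DESeq2, limma-voom and edgeR's p before adjustment 0 were higher too. The other 15 included genes of the liver programme that had 0 counts in each library, among them Apcs, Fga, Fgb, Fgg and Hamp. Crp, also too rare to be tested, had 4, 7 and 5 counts in the controls and 9, 9 and 14 after Wt1 siRNA. Its CPM was higher in each Wt1 siRNA library than in each control, and it was named after its values were seen. Without Wt1 siRNA library 4 the number of lower genes was 6, since Cfb (adjusted p = 0.0937), Mt1 (0.0521), Serping1 (0.159) and Steap4 (0.167) then missed the threshold. Steap4 (16, 18 and 43 counts against 0, 0 and 6) and Saa1 (18, 13 and 10 against 0, 4 and 0) passed the filter on low counts through their controls alone. Such genes are tested only because they are higher in the controls, so nothing is read from the lower call of Steap4.

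Serpina3n, a serine protease inhibitor related to human antichymotrypsin, was the gene of the list with the smallest p. It stood at 608, 862 and 566 CPM in the controls and at 194, 207 and 217 CPM after Wt1 siRNA, with the groups far apart and the Wt1 siRNA libraries close together. It fell 3.29-fold (-1.72 ± 0.15, adjusted p = 3.52e-05). Serpina3 genes form a family of similar copies, so reads could be shared with Serpina3m and Serpina3k, which were lower too. C3, the central complement component, stood at 62.0, 101 and 49.9 CPM and at 21.6, 19.9 and 17.7 CPM, with control library 2 again the highest, and fell 3.61-fold (-1.85 ± 0.22, adjusted p = 2.26e-04). Cp, the copper-carrying ferroxidase ceruloplasmin, fell from 121 ± 5.65 to 52.7 ± 9.24 CPM (-1.20 ± 0.13, adjusted p = 1.48e-04). A2m, the protease trap alpha-2-macroglobulin, fell from 15.0 ± 5.32 to 4.86 ± 1.8 CPM (-1.62 ± 0.31, adjusted p = 0.00378). Mt2, a metallothionein, stood at 233 ± 43.2 and 216 ± 19.4 CPM and did not pass (adjusted p = 0.635).

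**Figure D3:**
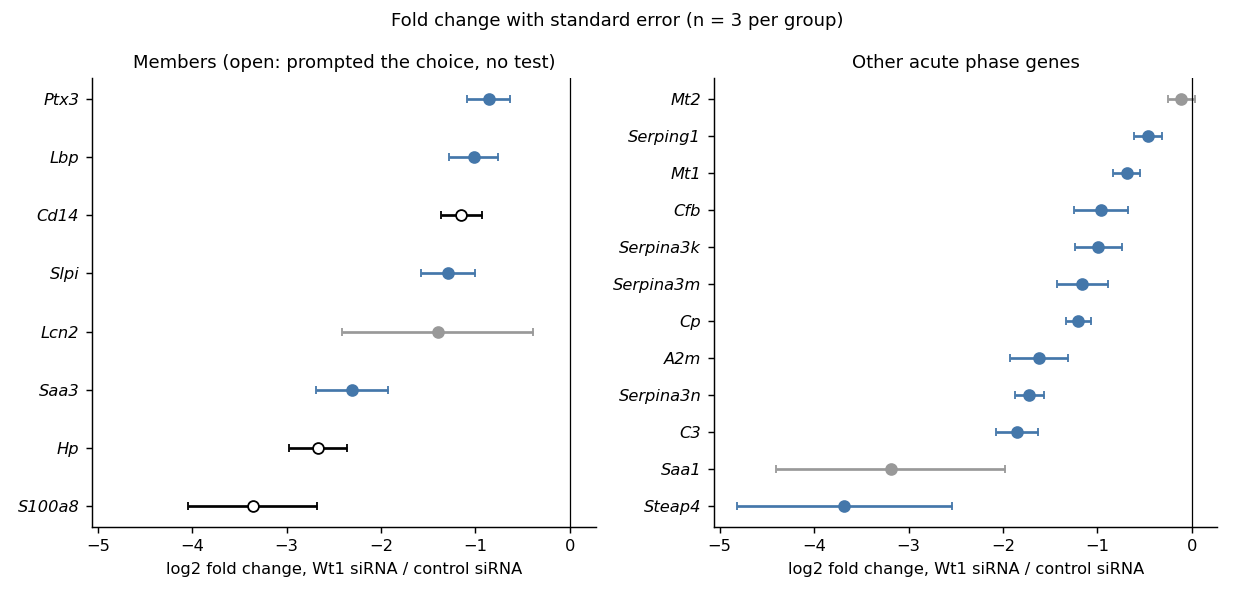
Log2 fold change (x axis, Wt1 siRNA over control siRNA) with its standard error for the tested members (left; open points prompted the choice and carry no test) and for 12 other acute phase genes (right); blue passed an adjusted p of 0.05 and grey did not. All points lie below 0, and Lcn2, Saa1 and Mt2 did not pass.

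Genes of the IL-6, STAT3 and C/EBP route were lower more often than higher. Of 21 tested 10 were lower and 2 higher (47.6% and 9.52%), with a median log2 fold change of -0.56. Il6st, which encodes gp130, stood at 657, 707 and 475 CPM in the controls and at 299, 308 and 300 CPM after Wt1 siRNA, and fell 2.03-fold (adjusted p = 4.47e-04). Osmr, the oncostatin M receptor that pairs with gp130, fell from 389 ± 38.4 to 197 ± 27.0 CPM (-0.98 ± 0.12, adjusted p = 2.98e-04). Stat3 itself stood at 333, 345 and 308 CPM and at 189, 184 and 209 CPM, and fell 1.70-fold (-0.76 ± 0.10, adjusted p = 4.70e-04). Socs3, the feedback inhibitor induced by STAT3, fell from 97.4 ± 12.4 to 43.9 ± 3.74 CPM (-1.15 ± 0.13, adjusted p = 1.48e-04).

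On the other side, Il6ra, the chain that binds IL-6, rose from 14.7 ± 1.87 to 25.5 ± 2.32 CPM (0.80 ± 0.15, adjusted p = 0.00343). Cebpg, a C/EBP family member without a classical activation domain, rose by 0.43 ± 0.10 (adjusted p = 0.0133). Without Wt1 siRNA library 4 there was 1 higher gene. Cebpb and Cebpd, the C/EBP factors of the acute phase response, fell by 0.56 ± 0.13 and 0.73 ± 0.14 in log2 units (adjusted p = 0.0125 and 0.00399). The cytokine Il6 had overlapping groups, at 21.4, 13 and 14.8 CPM against 9.04, 7.79 and 19.2 CPM (adjusted p = 0.360). Cebpb, Cebpd and Il6 were named after their values were seen.

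Of 20 tested genes of the IL-1, TNF and NF-kB list 5 were lower and 2 higher (25% and 10%), with a median of -0.20. Il1r1, the signalling receptor of IL-1, showed the largest fall of the list, from 127, 131 and 125 CPM to 29.2, 31.0 and 49.0 CPM, 3.51-fold (-1.81 ± 0.17, adjusted p = 6.77e-05). Ikbkb, a kinase that activates NF-kB, fell by 1.20 ± 0.18, Bcl3, a nuclear IkB protein, by 1.01 ± 0.19, and Il1rn, the IL-1 receptor antagonist, by 1.17 ± 0.34 in log2 units (adjusted p = 9.42e-04, 0.00304 and 0.0321). Tnfrsf1b, a TNF receptor, rose by 0.70 ± 0.10 (adjusted p = 7.81e-04) and Nfkb1, an NF-kB subunit, by 0.37 ± 0.11 (adjusted p = 0.0320). The cytokines themselves were nearly absent: Tnf had 0 counts in each library, and Il1b had 1 count in each of control libraries 1 and 2 and 0 in the others. Leaving out control library 1, or any of libraries 4 to 6, gave 3 lower genes. The higher genes numbered 1 when control library 1 or 2 or any of libraries 4 to 6 was left out, and 1 with library size scaling.

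**Figure D4:**
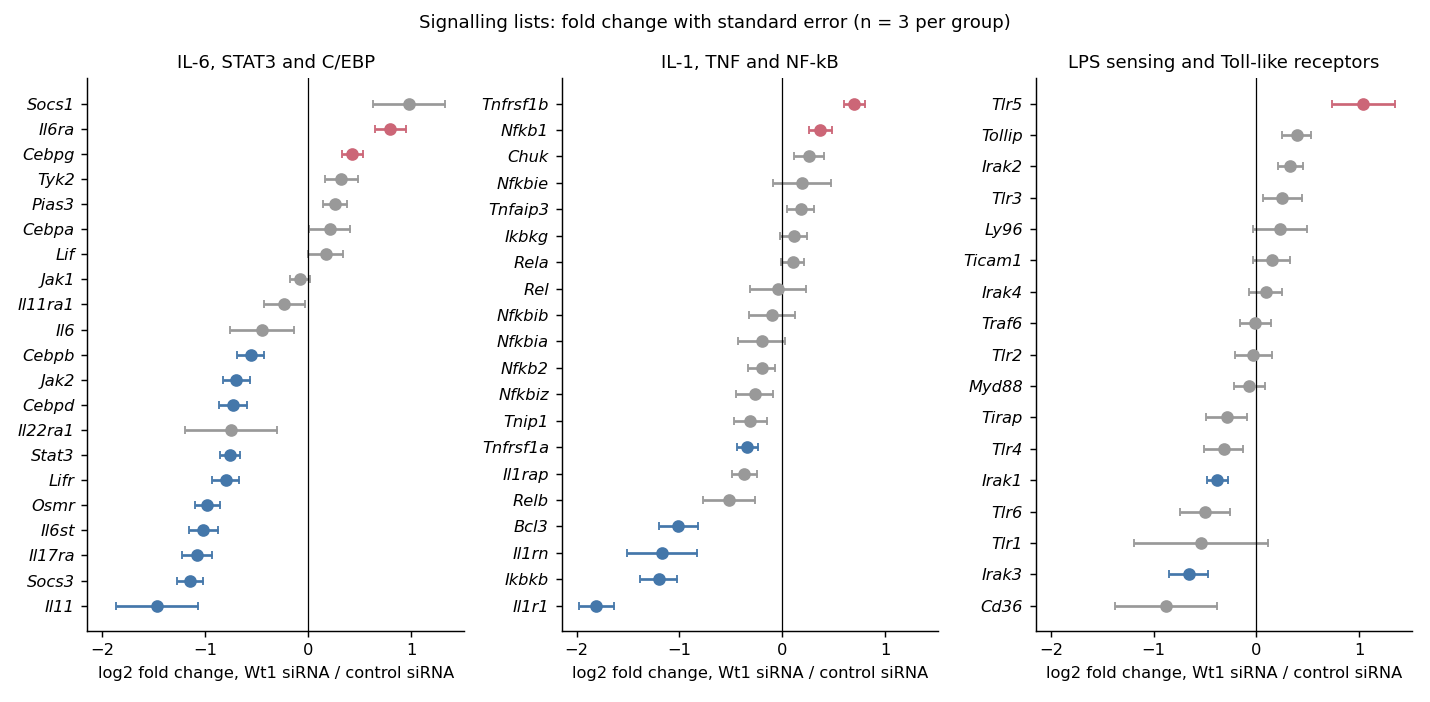
Log2 fold change with standard error (x axis, Wt1 siRNA over control siRNA) for the tested genes of 3 signalling lists; blue was lower and red higher at an adjusted p of 0.05, and grey did not pass. Il1r1 (-1.81) is the lowest gene of the middle panel, and 10 genes of the left panel are blue.

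The list of other antimicrobial genes had few members with enough reads. Of 28 listed, 9 were tested, and 0 were lower and 0 higher by edgeR (also 0 in both directions by DESeq2, limma-voom and edgeR's p before adjustment), with a median of -0.11. Lyz2, lysozyme, stood at 19.7 ± 1.88 and 21.7 ± 3.14 CPM and did not pass (adjusted p = 0.577). Another 13 of the 28 had 0 counts in each library. Camp, the cathelicidin, did not pass the filter and had 4, 24 and 21 counts in the controls against 0, 0 and 0; it was lower in a test without the filter (adjusted p = 0.0262). Lyz2 and Camp were named after their values were seen. Without control library 1 there was 1 lower gene.

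Several of these genes are known from neutrophils, macrophages, epithelium or mesothelium, so markers of those cells were measured beside them. Of 11 neutrophil markers in the table Elane, Ngp and Retnlg had 0 counts and Ltf had 1 in all. Their sum was 22.1 to 34.3 CPM in the controls and 21.2 to 34.6 CPM after Wt1 siRNA. The 15 macrophage and monocyte markers summed to 31.7 to 37.3 and 31.2 to 37.5 CPM, and Siglecf had 0 counts. Of 4 neutrophil and 8 macrophage markers tested 0 were called in either direction by edgeR; 1 neutrophil marker was higher by DESeq2 and by edgeR's p before adjustment, and 0 were called by limma-voom. Single genes made up most of these sums: Cxcr2 had 23.1 and 21.9 CPM on average among the neutrophil markers, and Lyz2 had 19.7 and 21.7 CPM among the macrophage markers. In each of these lists 7 markers had too few reads to be tested. Among them Camp (4, 24 and 21 counts against 0, 0 and 0), also a neutrophil gene, and the macrophage gene Tyrobp (10, 11 and 10 against 0, 4 and 0) were lower in each Wt1 siRNA library than in each control. Camp and Tyrobp were named after their values were seen. The part of these cells in the values of S100a8 and Cd14 was not tested.

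The 13 epithelial markers summed to 61.3 to 82.8 CPM in the controls and 76.8 to 88.7 CPM after Wt1 siRNA, with Sftpa1 and Scgb1a1 at 0 counts. Of 7 tested Krt19 was higher (1.12 ± 0.19), Krt18 lower (-0.59 ± 0.16), and 5 did not pass. The log2 fold change was below 0 in 6 of the 7, with a median of -0.59. Krt19 alone rose from 17.9 ± 4.99 to 39.0 ± 2.99 CPM, so the sums do not show how the other epithelial markers moved. The 8 endothelial markers summed to 101 to 126 and 85.7 to 105 CPM. Of 7 tested 1 was lower, Kdr (-0.88 ± 0.23), and 0 were higher by edgeR, DESeq2 and limma-voom, while 1 was higher by edgeR's p before adjustment.

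The 7 mesothelial markers summed to 193 to 246 CPM in the controls and to 145 to 191 CPM after Wt1 siRNA, so that these sums did not overlap. All 7 were tested. Lrrn4 (-2.10 ± 0.15), Upk3b (-2.16 ± 0.36), Gpm6a (-1.06 ± 0.20) and Calb2 (-2.41 ± 0.73) were lower. Msln (0.87 ± 0.15) and Krt19 were higher, and Upk1b did not pass (adjusted p = 0.230). Calb2 had 37, 32 and 32 counts in the controls against 3, 4 and 12 after Wt1 siRNA. It needed its controls to pass the filter on low counts, so nothing is read from its lower call. Of the 7, Upk3b, Lrrn4, Msln and Upk1b were, like Hp and Saa3, highest in control library 2 and lowest in control library 3. That order was shared by 16.8% of all tested genes, and Krt19, Gpm6a and Calb2 had other orders. In bulk samples fewer cells of a type and less RNA per cell cannot be told apart, and the part of mesothelial cells in the members' values was not tested. Of the 10 fibroblast markers 5 were higher, among them Col1a1 (1.13 ± 0.19), and 2 lower, Pdgfra (-1.17 ± 0.13) and Col3a1 (-0.46 ± 0.11).

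**Figure D5:**
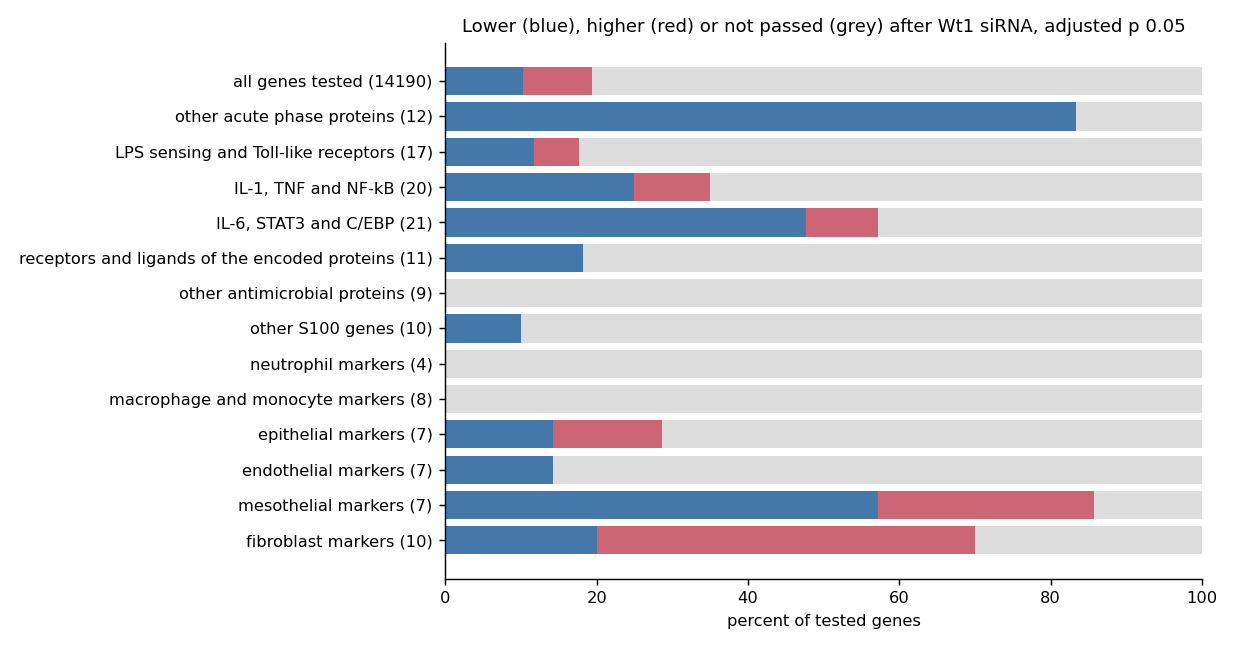
Percent of the tested genes of each list (x axis; number tested in parentheses) that were lower (blue), higher (red) or not called (grey) after Wt1 siRNA at an adjusted p of 0.05, with all 14190 genes at the top. The lower share is 83.3% of the other acute phase genes, against 10.3% of all genes. It is 57.1% of the mesothelial markers and 47.6% of the IL-6, STAT3 and C/EBP list. These shares include Steap4 (acute phase) and Calb2 (mesothelial), which needed their controls to pass the filter on low counts. The lists were chosen with earlier results of these data known.

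Genes beside the members on their chromosomes were also examined. Among 20 neighbouring or overlapping genes that are not members, 13 were tested, and 0 were lower and 0 higher by edgeR, DESeq2 or limma-voom, with 1 higher by edgeR's p before adjustment. Txnl4b, which ends 1077 bases from Hp, stood at 4.08 ± 1.02 and 4.89 ± 1.34 CPM (adjusted p = 0.601). Saal1, 1308 bases from Saa3, stood at 8.10 ± 0.713 and 6.92 ± 1.81 CPM (adjusted p = 0.563). Bpi, which neighbours Lbp and encodes a related protein that kills bacteria by binding LPS, had 0 counts in each library. S100a7a, on the other side of S100a8, stood at 0.513 ± 0.198 and 0.800 ± 0.324 CPM (adjusted p = 0.580).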

How the data were processed

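RNA sequencing counts of 6 libraries (3 with control siRNA, 3 with Wt1 siRNA) were used as deposited: raw whole-number read counts per Entrez gene ID. Per the submitters' processing notes, TopHat, DESeq, bcl2fastq, CASAVA 1.8 and the mm10 (GRCm38) build were used, with no roles stated; the counter, annotation and strand setting were not given in the sources used here. Of 24061 IDs 23976 matched a RefSeq symbol (GRCm38.p6), 21209 had a principal transcript length from GENCODE M21, and the remaining IDs stayed in the tests.

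The test was edgeR 4.0.16 (R 4.3.3), quasi-likelihood, with TMM, filterByExpr and the siRNA group as the only term; p-values were adjusted (Benjamini-Hochberg) over 14190 genes and called at 0.05; SE is the log2 fold change over the square root of F. The call asks for no minimum fold. Alternatives were DESeq2 1.42.0, limma-voom (limma 3.58.1), library size scaling, no or a stricter filter, robust shrinkage and leaving out each library. The procedure was tested on simulated counts.

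Members and lists were chosen with earlier results of these data known. Named genes are the members, Wt1, up to 4 genes per list and direction with the smallest p among those called, neighbours, close copies and the 5 genes most like Hp (mean log2 CPM of at least 2, prior count 2). Other genes named were chosen after their values were seen. Intervals and floors cover counting error only.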

Additional observations from a re-analysis of the deposited data

How the results depend on the processing

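No paired analysis was run, since the labels do not say whether control and Wt1 siRNA libraries share a culture or mouse. The log2 fold change of Wt1 was -2.65 to -2.38 with a library left out. Of the 5 tested members that did not prompt the choice, Saa3 and Slpi passed under each alternative, Lcn2 under none that tested it (it did not pass the stricter filter), Ptx3 lost its call only without control library 2 or library 4 or 6, and Lbp only without control library 2 or library 5. With a library left out, lower and higher genes numbered 785 to 1406 and 578 to 1253 over all genes, and with library size scaling 855 were higher. The ranges for the lists, lower then higher, were 6 to 8 and 0 to 0 for other acute phase genes, 8 to 11 and 1 to 2 for IL-6, STAT3 and C/EBP, 3 to 4 and 1 to 2 for IL-1, TNF and NF-kB, 0 to 3 and 0 to 2 for LPS sensing, 2 to 2 and 0 to 2 for receptors and ligands, 0 to 1 and 0 to 0 for other antimicrobial genes, and 1 to 2 and 0 to 0 for other S100 genes. With library size scaling 1 gene of the IL-1, TNF and NF-kB list and 0 of LPS sensing were higher; of LPS sensing 3 were higher with DESeq2 and 2 without the filter. Without the filter 1 other antimicrobial gene was lower, and 2 S100 genes, as with DESeq2. The cause was not tested. Depth limits Lcn2, S100a9, Orm1 and Saa1, whose counts were at most 18 in a library.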
